A study of Mus musculus with 6 samples.

Results

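Genes of the nuclear pore and of nuclear transport were compared between mouse oocytes that had grown in cultured follicles and oocytes that had grown in the ovary. The group held every gene of the deposited table whose symbol begins with Nup or Ipo and a digit, or with Kpna, Kpnb, Xpo or Tnpo, and the genes Ran, Ranbp1, Ranbp2, Rcc1 and Tpr. It had 45 members among 10896 genes. The rule uses gene names and no expression value.

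All oocytes were at the germinal vesicle stage, the stage of the intact oocyte nucleus before meiosis resumes, and came from (C57BL x CBA) F1 females. Each of the 6 samples held 50 oocytes, with 3 samples per group. The in vitro group had grown inside follicles dissected from ovaries of females 10 to 12 days old and kept on membrane inserts, in medium with 5% fetal bovine serum, insulin, transferrin, selenium and 0.01 µg/ml follicle stimulating hormone. The in vivo group was released by puncture from ovaries of adult females of 7 to 11 weeks, into M2 medium with dbcAMP, a cyclic AMP analogue that holds oocytes at this stage. Donor age and culture differed together, so their effects cannot be told apart. Each library started from 10 ng of RNA and used a cDNA kit made for small inputs.

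Nuclear pores are ring-shaped channels through the nuclear envelope. A scaffold of Y-shaped complexes and an inner ring carries a central channel filled with proteins rich in phenylalanine and glycine repeats, cytoplasmic filaments and a nuclear basket. Large cargo crosses bound to carriers of the importin beta family, which include exportins and, with importin alpha as an adaptor, the classical import receptor. The GTPase Ran, charged with GTP by Rcc1 on chromatin and discharged by Rangap1 in the cytoplasm, sets the direction of transport. Through this stage the oocyte nucleus, called the germinal vesicle, is large and the oocyte stores mRNA for the divisions that follow.

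The authors' deposited table gave 1 mean of normalised reads per gene and group. It also gave a PPEE, read here as the posterior probability of equal expression from the usual meaning of that term. A PPEE is not a p-value, and a gene was called where it was below 0.05. Each mean is a sum of whole reads weighted by 1 step per library, so the reads of single libraries could be solved for 8881 genes with means up to 1000, and for 31 of the 45 members. The 14 members without such reads were Nup107, Nup160, Nup85, Nup35, Nup93, Nup54, Nup62, Nup88, Nup214, Kpna2, Kpna3, Kpna7, Ipo8 and Tnpo1. Their values are the authors' means, with no error. Libraries were named A, B and C within each group, since no source ties them to the sample numbers. Over the solved genes they held 1294750 to 1931370 reads. Values per library below are recovered reads divided by the library's size factor and are called normalised reads. They are less certain at high means, most of all between 500 and 1000, as given with the processing.

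The RNA carried oocyte markers at high levels, with 11 of 11 listed markers in the table and summed means of 114191 normalised reads in vitro and 164594 in vivo. Of these, 3 (Bmp15, Kit and Nlrp5) were called lower in vitro by the authors' deposited table and 0 higher. Granulosa and cumulus markers, of which 8 of 13 were in the table, summed to 415 to 525 normalised reads in the in vitro libraries and 278 to 289 in the in vivo libraries. By the authors' deposited table Inhba, Inha and Fshr among them were called, each higher in vitro. Uncalled there were Cyp19a1 and Hsd17b1, with higher means in vitro, and Gja1, Kitl and Nr5a2, with lower means in vitro. The defining granulosa markers Amh and Foxl2 had no row there, and only Cyp11a1 of 10 theca and stroma markers and Cd68 of 7 blood and immune markers had one. The part of these differences in the values below was not tested. With RNA from bulk samples, fewer cells with a transcript and less of it per cell cannot be told apart.

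Most pore and transport genes stood slightly lower in oocytes grown in vitro, a few were clearly lower or higher, and the Ran GTPase itself was level. Of the 45 members, 32 (71.1%) had a lower mean in vitro, against 48.9% of all genes of the table. Their median log2 ratio of in vitro over in vivo was -0.19, beside 0.02 for all genes. By PPEE in the authors' deposited table, 8 of 45 members were called, where 15.1% of all genes were. Called higher in vitro were 2 members, Nup50 and Nup37, beside 6.75% of all genes. Called lower were 6 members, Nup133, Nup88, Ranbp2, Ipo9, Tnpo3 and Xpo5, beside 8.31% of all genes. The share called by PPEE among the members was thus close to that of the table. The lean towards lower means was spread over many members with small differences: 9 of 45 differed at least 1.5-fold, as did 3234 of 10896 genes. The median of the mean over both groups was 388 normalised reads for the members and 134 for all genes. The part of this level in the calls was not tested.

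**Figure D1:**
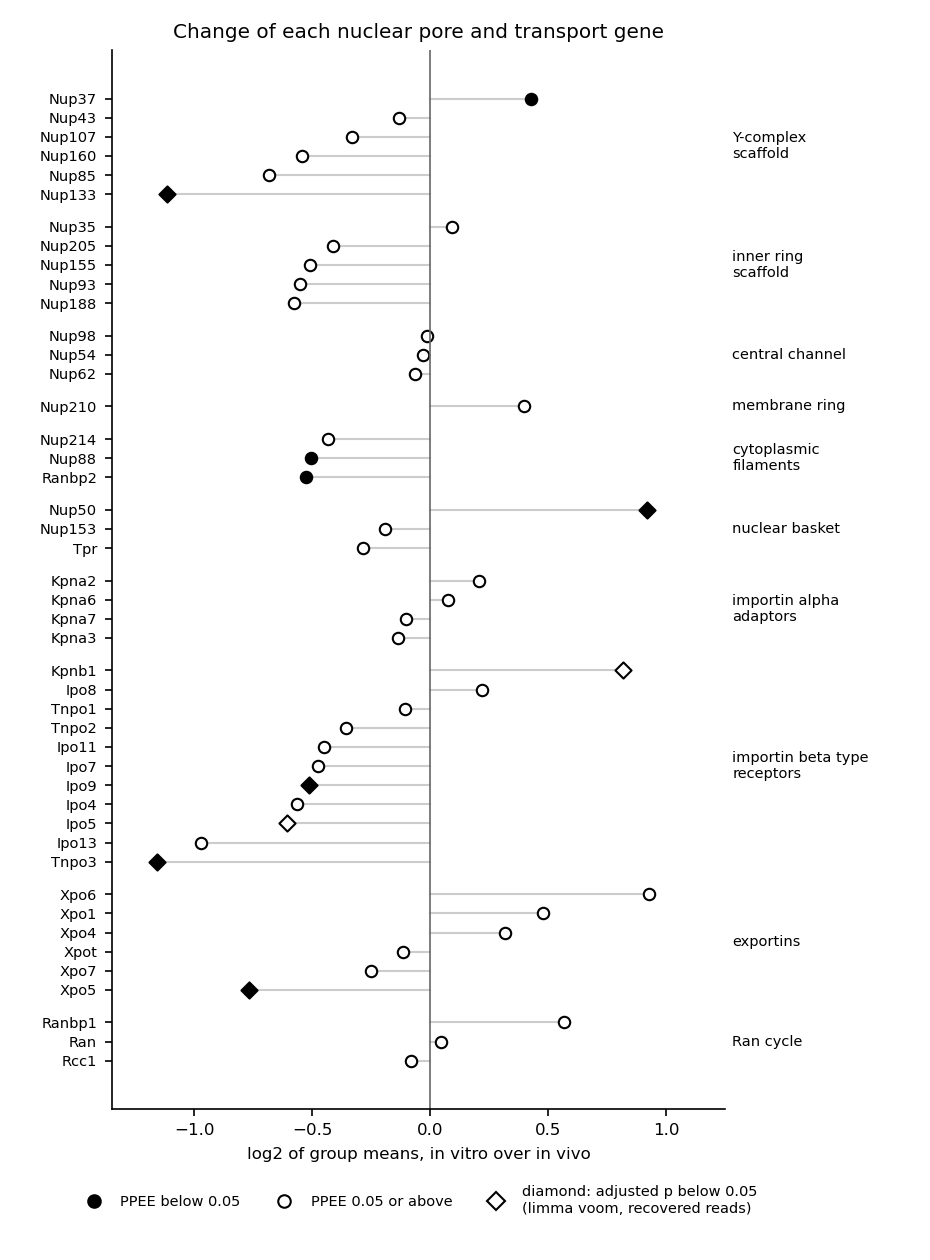
Log2 ratio of the group means, in vitro over in vivo, for each of the 45 members, grouped by role, with filled symbols for a PPEE below 0.05 and diamonds for an adjusted p below 0.05 in limma voom on recovered reads. In all, 32 members lie left of 0, with Tnpo3 and Nup133 farthest to the left and Nup50 and Xpo6 farthest to the right.

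On recovered reads, limma voom with Benjamini-Hochberg adjustment over 8881 genes called 7 of the 31 solved members at an adjusted p below 0.05, where 9.98% of all solved genes were called. Higher in vitro were 2, Nup50 and Kpnb1, beside 5.21% of all genes, and lower were 5, Nup133, Tnpo3, Ipo9, Ipo5 and Xpo5, beside 4.76%. Nup50, Nup133, Tnpo3, Ipo9 and Xpo5 were called both here and by PPEE. All 3 in vitro libraries stood above all 3 in vivo libraries for 5 members (18.8% of all solved genes did) and below them for 10 (16.1%), so that the groups did not overlap for 15 of 31 members, beside 34.9% of all genes. These p-values measure the spread between the samples only, since no source says whether samples of a group came from different cultures or animals. Leaving out in vitro library A kept these 7 calls and gave 13, where 26.8% of all solved genes were called. Leaving out any other library lost calls, among the members and over all solved genes. Without in vitro B 2 members were called, beside 2.11% of all solved genes, and without C 0, beside 0.394%. Without in vivo library A, B and C the members called were 0, 0 and 4, beside 0%, 0.394% and 6.34% of all solved genes. Nup133 and Nup50 were the members called without in vitro B, and these with Ipo9 and Xpo5 were those called without in vivo C. At an unadjusted p below 0.05 limma voom gave 16 of 31 members with all libraries, beside 2716 of 8881 genes. The number of members was 14 without in vitro C, and 14 and 11 without in vivo A and B. For these settings no unadjusted share of all genes is given.

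Some members carry a short uracil-rich element near the end of their mRNA of the kind known, as background, to govern poly(A) tail length and storage of oocyte mRNA. The search was chosen after values were seen, and covered the last 100 bases of the 3′ UTR in GENCODE M21, on the transcript strand, for TTTTAT or TTTTAAT. Of 42 members with a UTR of that length 12 (28.6%) held a match, as did 1973 of 9871 genes of the table (19.99%). A poly(A) signal AATAAA or ATTAAA lay in the last 40 bases for 81.0% of these members and 75.9% of those genes. The sites of the 5 called members that had one are shown because these genes lead the results below, with the match in capitals, 5′ to 3′ in build GRCm38. Nup88 lies at chr11:70943082-70943111 (minus strand), Ranbp2 at chr10:58494288-58494317 (plus), Nup37 at chr10:88178306-88178335 (plus), Ipo5 at chr14:120947947-120947976 (plus) and Kpnb1 at chr11:97159714-97159743 (minus), each within the 3′ UTR.
Nup88: ttcaaataaagtttgaataaatTTTTATtc
Ranbp2: aacttaTTTTAATtcctgttaagatatctg
Nup37: ccttatTTTTATatcaaacatactgtaaat
Ipo5: aatgagTTTTATgcataaatcagaatttaa
Kpnb1: aataaagtccgctttatTTTTATtttcaac
Only the match nearest the end of each UTR is shown. It was the longer form in Ranbp2 and the shorter one in the other 4. The match began 8 bases before the end of the UTR in Nup88, 13 in Kpnb1, 47 in Ipo5, 63 in Ranbp2 and 77 in Nup37. Matches occurred in members called in either direction by PPEE, in 1 of 2 called higher and 2 of 6 called lower, and in 9 of 34 not called. A match describes these letters only and does not show that a site is used.

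In the Y-complex, the outer scaffold of the pore, Nup133 fell and the small subunit Nup37 was called higher in vitro. Nup133 (gene identifier 234865), at the tip of the Y stalk, stood at 213, 127 and 161 normalised reads in libraries A, B and C of the in vitro group and at 365, 399 and 322 in the in vivo ones. Every in vitro library was below every in vivo library. The means of 167 ± 43.2 and 362 ± 38.8 (SD, n = 3 libraries each) differed 2.16-fold, with a log2 change of -1.13 ± 0.20 (SE) and an adjusted p of 0.0122 in limma voom, which ranged from 0.000385 to 0.0753 over the alternatives. The authors' deposited table gave it a PPEE of 1.15e-10. The annotation has antisense genes, Gm29773 and Gm45890, over exons of Nup133, and whether the counting used strand is not given in the sources used here.

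Nup37 (gene identifier 69736), which joins the complex only in some lineages, gave 636, 843 and 721 normalised reads in vitro and 537, 534 and 564 in vivo. The in vitro libraries lay above the in vivo ones and were more scattered. The group means were 733 ± 104 and 545 ± 16.3 (SD, n = 3 libraries each), a 1.35-fold difference. Its PPEE in the authors' deposited table was 0.0243, whereas limma voom gave a log2 change of 0.42 ± 0.15 (SE) and an adjusted p of 0.0793. Over the alternatives that p ranged from 0.0104, without in vitro library A, to 0.226.

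The most abundant Y-complex transcript, Nup85, had authors' means of 1218 in vitro and 1958 in vivo. This 1.61-fold ratio was not called, its PPEE being 0.127 in the authors' deposited table. Nup43, Nup107 and Nup160 were 1.10-fold to 1.46-fold lower in vitro, also without a call. Members of the complex thus differed in direction: 5 of 6 means were lower in vitro and that of Nup37 was higher. The Y-complex subunits Seh1l, Sec13 and Ahctf1 lay outside the naming rule. Seh1l and Sec13 were within 1.01-fold between the groups, Ahctf1 was 1.38-fold higher in vitro, and none was called. Per kb of gene length the in vivo levels of the 6 members ran from 62.3 for Nup133 to 898 for Nup85.

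The inner ring showed no called member by either measure, though 4 of its 5 means were lower in vitro. Nup35 and Nup93 had no reads per library, so limma voom did not test them. Nup188 (gene identifier 227699), a large scaffold protein of this ring, was at 96.5, 101 and 118 normalised reads in vitro and 168, 157 and 145 in vivo. The groups did not overlap, at 105 ± 11.4 against 156 ± 11.8 (SD, n = 3 libraries each), a 1.49-fold difference. In limma voom the log2 change was -0.59 ± 0.20 (SE) with an adjusted p of 0.0706. The authors' deposited table listed a PPEE of exactly 1, a value shared by 14.9% of its genes. Nup35, a membrane-facing linker of the ring, was its most abundant transcript, with authors' means of 3971 in vitro and 3725 in vivo. Nup155, Nup205 and Nup93 were 1.42-fold, 1.33-fold and 1.47-fold lower in vitro, none called. Levels per kb spread widely, from 27.5 for Nup205 to 1362 for Nup35 in vivo.

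The central channel, whose repeat proteins form the permeability barrier, was even between the groups for the 3 members that the naming rule caught. Nup58, under its older symbol Nupl1, is given with the further pathway genes and was called lower in vitro. Nup54 had authors' means of 1644 in vitro and 1677 in vivo, and Nup62 had 1479 and 1548. Nup98, which also encodes the scaffold protein Nup96 from the same transcript, was at 491 ± 90.3 and 497 ± 58.8 normalised reads (SD, n = 3 libraries each). The means of these 3 members were within 1.05-fold of each other between the groups and none was called. The membrane ring had 1 member, Nup210, at 20.2, 31.1 and 28.5 normalised reads in vitro and 13.7, 22.1 and 24.8 in vivo. Its libraries overlapped, and at 2.87 per kb in vivo it was among the least abundant members.

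On the cytoplasmic face the 3 filament genes that the naming rule caught had lower means in vitro. Of these, 2 were called in the authors' deposited table. Nupl2, the older symbol of the filament gene Nup42, lay outside the rule and was not called. Its authors' means were 81.1 in vitro and 69.0 in vivo. Nup88 (gene identifier 19069), which anchors the filament complex and binds Nup214, had authors' means of 1136 in vitro and 1612 in vivo. The ratio was 1.42-fold, and the authors' deposited table gave a PPEE of 2.4e-05. No reads per library were recovered for it. Exons of Rabep1 overlap those of Nup88 on the opposite strand. Nup214, its partner and the most abundant of the 3, had authors' means of 2544 and 3439, a 1.35-fold ratio whose PPEE was 0.421 by the authors' deposited table.

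Ranbp2 (gene identifier 19386), the giant filament protein that binds Ran and acts as a SUMO ligase, was at 116, 106 and 160 normalised reads in vitro and 200, 171 and 178 in vivo. The highest in vitro library came close to the lowest in vivo library without reaching it. Means were 127 ± 28.9 and 183 ± 14.9 (SD, n = 3 libraries each), 1.44-fold apart. The authors' deposited table gave a PPEE of 0.00749, and limma voom gave -0.56 ± 0.21 (SE) on the log2 scale with an adjusted p of 0.0923. The annotation holds 12 named pseudogenes of Ranbp2, and how reads shared with them were counted is not given in the sources used here, so its level is uncertain.

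On the nuclear face Nup50 rose and the other basket genes did not change detectably. Nup50 (gene identifier 18141), a mobile basket protein that helps to release import cargo, stood at 451, 573 and 542 normalised reads in vitro and 249, 241 and 339 in vivo. Each in vitro library exceeded each in vivo library. The means of 522 ± 63.4 and 276 ± 54.3 (SD, n = 3 libraries each) were 1.89-fold apart. In limma voom the log2 change was 0.93 ± 0.18 (SE) with an adjusted p of 0.0151, ranging from 0.000622 to 0.0897 over the alternatives, and the authors' deposited table gave a PPEE of 1.35e-08. Nup153, the basket protein that binds Nup50, was at 518 ± 63.3 in vitro (SD, n = 3 libraries) and at 591 ± 76.4 in vivo. Tpr, which forms the basket's fibres, was at 426 ± 50.9 and 518 ± 86.8. Both overlapped between the groups and were slightly lower in vitro. In level per kb, Nup50 was above Nup153 and Tpr in vitro, at 110 against 86.0 and 56.4. In vivo it was below Nup153 and Tpr, at 58.0 against 98.1 and 68.7.

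**Figure D2:**
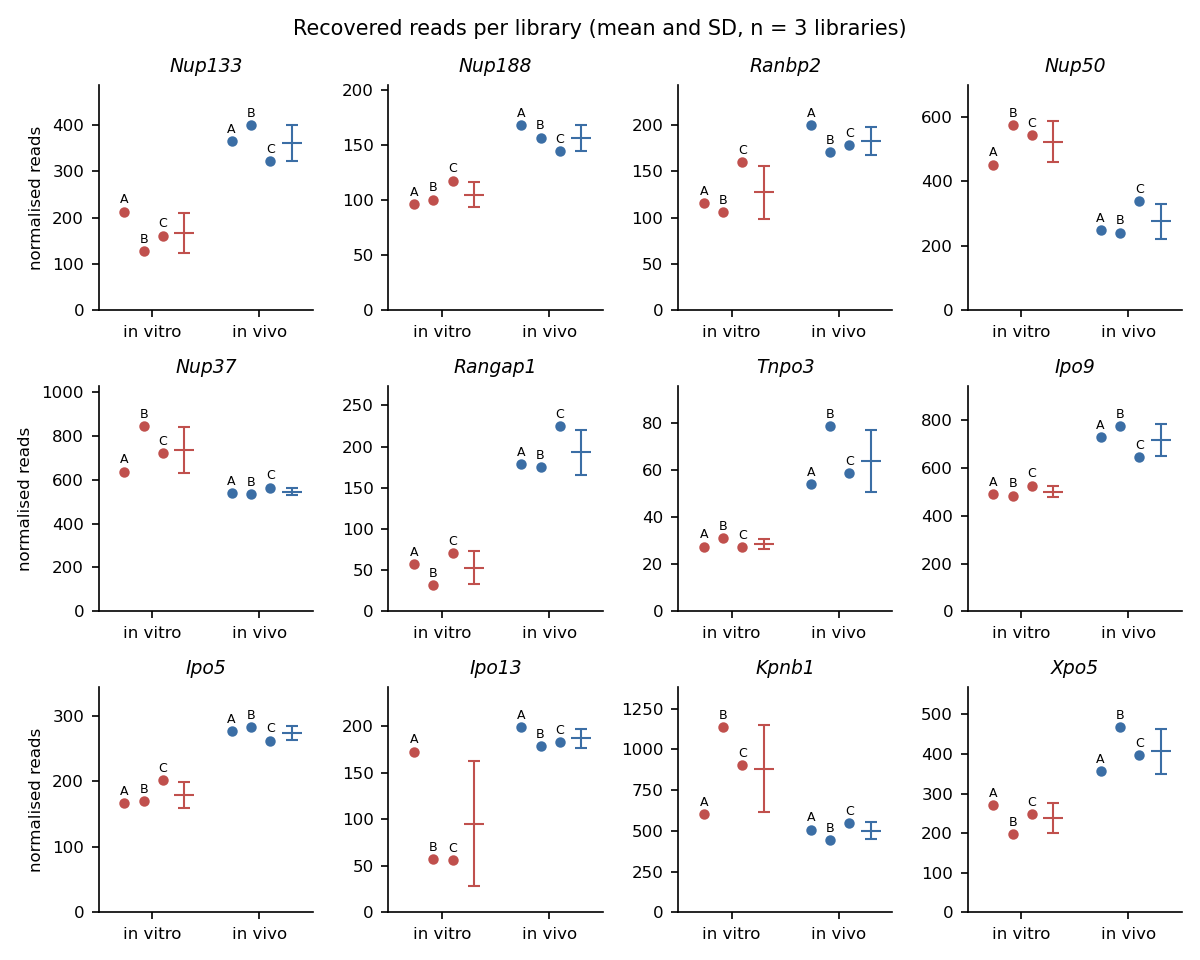
Normalised reads per library for 11 members and for Rangap1, with points for libraries A, B and C of each group and a bar for the mean and SD of 3 libraries. The panels are a choice of genes, and no member with overlapping groups is shown. The groups do not overlap in any panel, as for 15 of the 31 solved members and 34.9% of all solved genes. Ipo13 in vitro is spread between 55.8 and 173.

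Importin alpha adaptors, which bind nuclear localisation signals, were even between the groups. Kpna2 (gene identifier 16647), the adaptor stored in quantity in mouse oocytes, exceeded every other member, with authors' means of 23576 in vitro and 20447 in vivo. For this 1.15-fold ratio the authors' deposited table gave a PPEE of 0.978. Kpna2 made up 42.9% of the summed means of all 45 members in vitro and 36.9% in vivo. The oocyte-specific adaptor Kpna7 followed, at 1212 per kb in vitro and 1301 in vivo, against 11384 and 9873 per kb for Kpna2. Kpna3 was at 530 and 583 per kb, and Kpna6 at 37.3 and 35.4. None of the 4 was called, and the order Kpna2, Kpna7, Kpna3, Kpna6 was the same in both groups. One pseudogene of Kpna2 is named in the annotation. Kpna1 and Kpna4 had no row under these symbols in the authors' deposited table.

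Among the importin beta type receptors Kpnb1 rose and Tnpo3, Ipo9 and Ipo5 fell by limma voom, and PPEE called only Tnpo3 and Ipo9. Of 11 receptors 9 had lower means in vitro, with a median log2 ratio of -0.48. Of the 11, 2 (Tnpo3 and Ipo9) were called lower by the authors' deposited table and 0 higher, where 15.1% of all genes were called in either direction. By limma voom with Benjamini-Hochberg adjustment, 3 of the 9 solved receptors, Tnpo3, Ipo9 and Ipo5, fell and 1, Kpnb1, rose, where 9.98% of all solved genes were called.

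Tnpo3 (gene identifier 320938), the carrier of splicing factors rich in serine and arginine, stood at 27.6, 31.1 and 27.3 normalised reads in vitro and 54.2, 78.8 and 58.7 in vivo. All in vitro libraries lay well below the in vivo ones, though these counts are small, at 22 to 30 reads in vitro. The means of 28.7 ± 2.12 and 63.9 ± 13.1 (SD, n = 3 libraries each) were 2.23-fold apart, the largest ratio of any member. Limma voom gave a log2 change of -1.12 ± 0.30 (SE) and an adjusted p of 0.0366, with a range of 0.0262 to 0.143 over the alternatives. The authors' deposited table gave a PPEE of 1.83e-05. Exons of Irf5 overlap those of Tnpo3 on the opposite strand.

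Ipo9 (gene identifier 226432), a carrier of histones and ribosomal proteins, was at 493, 485 and 527 normalised reads in vitro and 731, 776 and 645 in vivo. The in vitro libraries were close together and each was below each in vivo library. Means of 502 ± 22.5 and 717 ± 66.5 (SD, n = 3 libraries each) gave a 1.43-fold difference. The limma voom log2 change was -0.52 ± 0.14 (SE) with an adjusted p of 0.0381, ranging from 0.0178 to 0.160, and the authors' deposited table gave a PPEE of 2.28e-09.

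Ipo5 (gene identifier 70572), another carrier of histones and ribosomal proteins, was at 166, 170 and 202 normalised reads in vitro and 277, 283 and 262 in vivo. The libraries did not overlap, with means of 180 ± 19.8 and 274 ± 10.5 (SD, n = 3 libraries each). The PPEE and limma voom disagreed on this gene: limma voom gave -0.62 ± 0.17 (SE) on the log2 scale and an adjusted p of 0.0417, with a range of 0.0319 to 0.151, while the PPEE in the authors' deposited table rounded to 1.

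Kpnb1 (gene identifier 16211), importin beta itself and the partner of importin alpha, was at 604, 1136 and 903 normalised reads in vitro and 509, 445 and 548 in vivo. The in vitro libraries were widely spread, and library A stood only slightly above the in vivo libraries. The means were 881 ± 267 and 500.3 ± 52.1 (SD, n = 3 libraries each), 1.76-fold apart. In limma voom the log2 change was 0.77 ± 0.21 (SE) with an adjusted p of 0.0416, ranging from 0.000263 to 0.155, and the authors' deposited table gave a PPEE of 0.385, so it was not called there. An antisense gene, Gm11583, overlaps exons of Kpnb1.

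Ipo13, a carrier that imports and exports different cargo, and named for its spread after its values were seen, stood at 173, 57.0 and 55.8 normalised reads in vitro and 199, 179 and 183 in vivo. In vitro library A was near the in vivo level and the other libraries were far below it. The fold was 1.96 with all libraries and 3.31 without in vitro library A, and no other member's fold moved by over 1.5 times when 1 library was left out. Limma voom gave Ipo13 an adjusted p of 0.0505, and one of 0.000352 without that library, in a range of 0.000352 to 0.181 over the alternatives. The most abundant receptor was Ipo8, which carries Argonaute and signalling proteins, with authors' means of 2116 in vitro and 1819 in vivo and no call. The rest, Ipo4, Ipo7, Ipo11, Tnpo1 and Tnpo2, were 1.08-fold to 1.48-fold lower in vitro and were not called with all libraries. Tnpo1 had no reads per library, so limma voom did not test it. Ipo4 had an adjusted p of 0.0197 in limma voom without in vitro library A, in a range up to 0.272. Beside Kpna2, the in vitro level per kb of Kpnb1 was 149 and that of the lowest receptor, Tnpo3, was 7.22.

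Among exportins Xpo5 fell, while the general export receptor Xpo1 did not pass either test. Xpo5 (gene identifier 72322), which exports precursor miRNAs, was at 270, 198 and 248 normalised reads in vitro and 357, 468 and 396 in vivo. Every in vitro library was below every in vivo library. Means of 239 ± 37.0 and 407 ± 56.3 (SD, n = 3 libraries each) were 1.70-fold apart. The limma voom log2 change was -0.77 ± 0.18 (SE) with an adjusted p of 0.0264, ranging from 0.00432 to 0.126, and the authors' deposited table gave a PPEE of 7.37e-05.

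Xpo1, which exports proteins with leucine-rich signals, was at 335, 472 and 547 normalised reads in vitro and 326, 314 and 333 in vivo. Xpo6, the exporter of actin and profilin, gave 81.8, 157 and 123 in vitro and 80.0, 46.9 and 63.2 in vivo. In both genes in vitro library A was barely above the highest in vivo library. Their folds were 1.39 and 1.90, with adjusted p of 0.140 and 0.0724 in limma voom. The authors' deposited table gave them PPEEs of 0.601 and 0.174. Without in vitro library A, limma voom gave Xpo1 an adjusted p of 0.00660 and Xpo6 one of 0.00604, and both were then called higher. Over the alternatives these p ranged up to 0.410 and 0.256. Xpo4, Xpo7 and Xpot, the tRNA exporter, were within 1.24-fold between the groups, with no call. Xpot was the least abundant member per kb, at 1.97 in vitro and 2.14 in vivo.

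The Ran cycle's own members showed no call. Ran (gene identifier 19384) stood at 340, 407 and 346 normalised reads in vitro and 366, 345 and 347 in vivo. The groups overlapped fully, at 365 ± 37.2 and 353 ± 11.7 (SD, n = 3 libraries each), with a log2 change of 0.04 ± 0.15 (SE) and an adjusted p of 0.881 in limma voom. Rcc1, the exchange factor on chromatin, was at 343 ± 55.2 and 363 ± 32.0, and also overlapped. Ranbp1, which helps Rangap1 to discharge Ran, gave 189, 219 and 256 normalised reads in vitro and 150, 92.1 and 206 in vivo. The 1.48-fold higher mean of Ranbp1 in vitro had an adjusted p of 0.119 in limma voom (0.0441 without in vitro library A, and 0.0441 to 0.441 over the alternatives), and in vivo library C lay within the in vitro range. Exons of Trmt2a overlap those of Ranbp1 on the opposite strand, and exons of Gm49776 do so on the same strand.

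**Figure D3:**
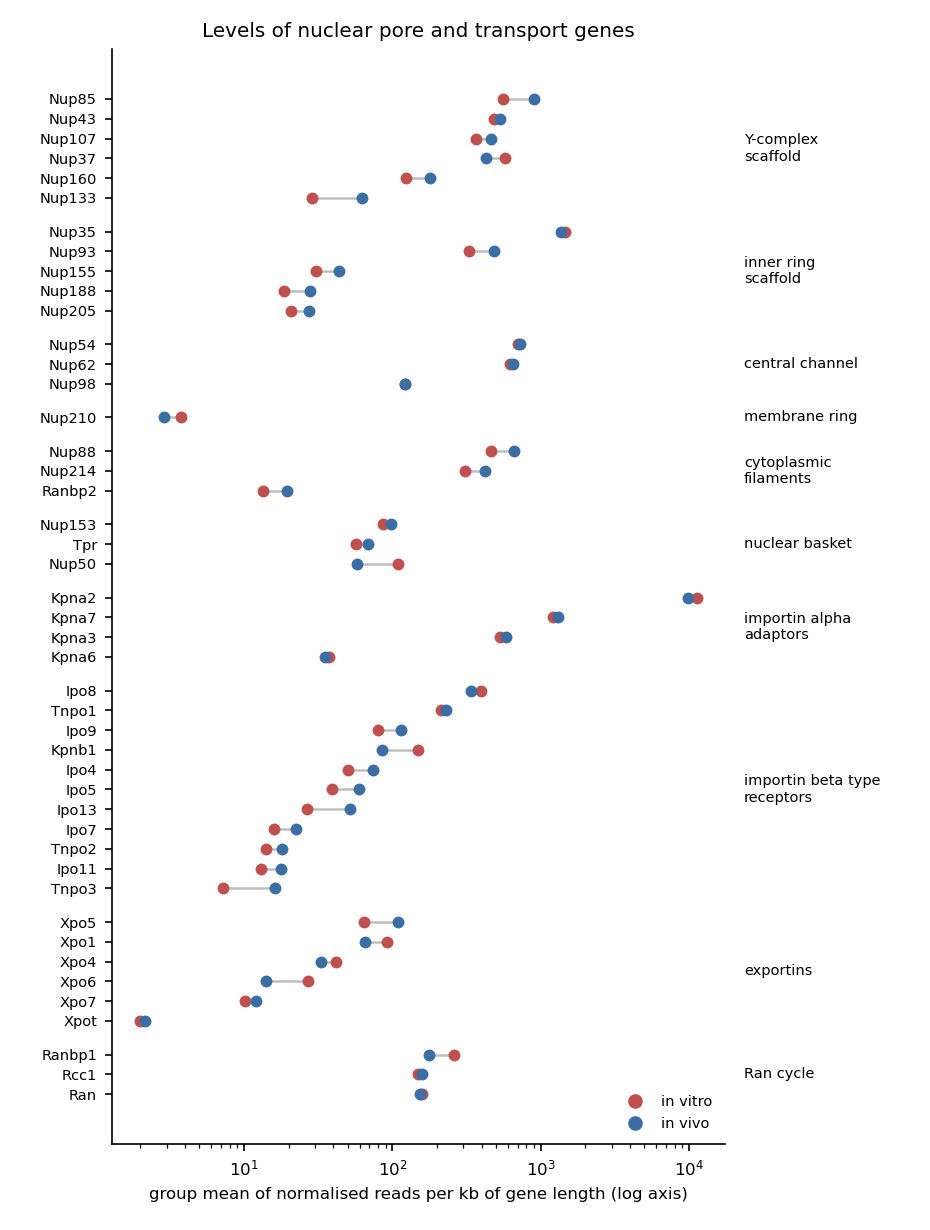
Group means per kb of gene length on a log axis for the 45 members by role, red for in vitro and blue for in vivo. Levels run from 1.97 per kb for Xpot to 11384 for Kpna2 in vitro, and the distance between the 2 groups is small beside the distance between genes.

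Levels differed far more between members than between groups. The Spearman correlation of both group means over the 45 members was 0.963, given as a description over genes, which share the same libraries. The members took up 0.801% of the summed means of the table in vitro and 0.836% in vivo.

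Outside the naming rule, 54 of 64 further genes of the pore, of Ran and RNA export and of the nuclear envelope had a row in the table. Of the 54, 1 (Ranbp6) was called higher in vitro by the authors' deposited table and 4 (Rangap1, Nupl1, Mcm3ap and Sun1) lower, beside 6.75% and 8.31% of all genes. Of the 54 means 32 were lower in vitro, with a median log2 ratio of -0.01. On recovered reads limma voom with Benjamini-Hochberg adjustment called 1 of 39 higher, Ranbp6, and 3 lower, which were Rangap1, Nupl1 and Thoc6, a subunit of the complex that couples transcription to mRNA export. Of all solved genes 5.21% were called higher and 4.76% lower. Thoc6, named after its values were seen, had an adjusted p of 0.04996 and libraries that overlapped.

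Rangap1 (gene identifier 19387), the activator of GTP hydrolysis by Ran, showed a larger ratio than any member. It stood at 57.0, 32.1 and 70.7 normalised reads in vitro and 179, 175 and 225 in vivo. The highest in vitro library was far below the lowest in vivo library. Means of 53.3 ± 19.6 and 193 ± 27.6 (SD, n = 3 libraries each) were 3.62-fold apart, with a log2 change of -1.91 ± 0.28 (SE) and an adjusted p of 0.00662 in limma voom. The authors' deposited table listed its PPEE as 0. Leaving out 1 library at a time gave folds of 3.02 to 4.33. Rangap1 was thus called lower in vitro, while the Ran cycle members Rcc1 and Ranbp1 were not called. Ranbp2, which also binds Ran, was called lower by PPEE but not by limma voom, as given above.

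Nupl1 (gene identifier 71844), the older symbol of the central channel protein Nup58, stood at 455, 252 and 445 normalised reads in vitro and 608, 617 and 601 in vivo. All in vitro libraries were lower, with means of 384 ± 115 and 609 ± 8.26 (SD, n = 3 libraries each) and an adjusted p of 0.0441 in limma voom. Its PPEE in the authors' deposited table was 0.00292. Its channel partners Nup54 and Nup62 were level, as given above. Mcm3ap, the scaffold of an mRNA export complex at the basket, had authors' means of 623 in vitro and 1034 in vivo and, by the authors' deposited table, a PPEE of 0.00693. Sun1, an inner membrane protein that links the nucleus to the cytoskeleton, had authors' means of 757 and 1036 and, by the authors' deposited table, a PPEE of 0.000321. Ranbp6, a relative of Ipo5, rested on few reads: 20, 15 and 6 in vitro and 0, 0 and 6 in vivo. Its fold of 6.11 was 4.07 without in vivo library A or B and 7.51 without in vitro library C. Without in vivo library C the in vivo reads were 0, and no fold is given.

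The lean of the members towards lower levels in vitro was present in each in vitro library. Relative to the in vivo mean, the median log2 difference over the 31 solved members was -0.18, -0.25 and -0.19 for libraries A, B and C grown in vitro. It was 0.01, 0.05 and -0.04 for the in vivo libraries, each set against the mean of the other in vivo libraries. In vitro 19, 22 and 22 of the 31 members were below the in vivo mean. In vivo 15, 14 and 17 were below the mean of the other in vivo libraries. Over all solved genes with means of at least 10, the medians of the 6 libraries were between -0.03 and 0.05. In vitro libraries A and B stood somewhat apart from their group over all genes, with Spearman correlations to the others of 0.956 and 0.958 against 0.975 to 0.979 for the other 4 libraries.

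**Figure D4:**
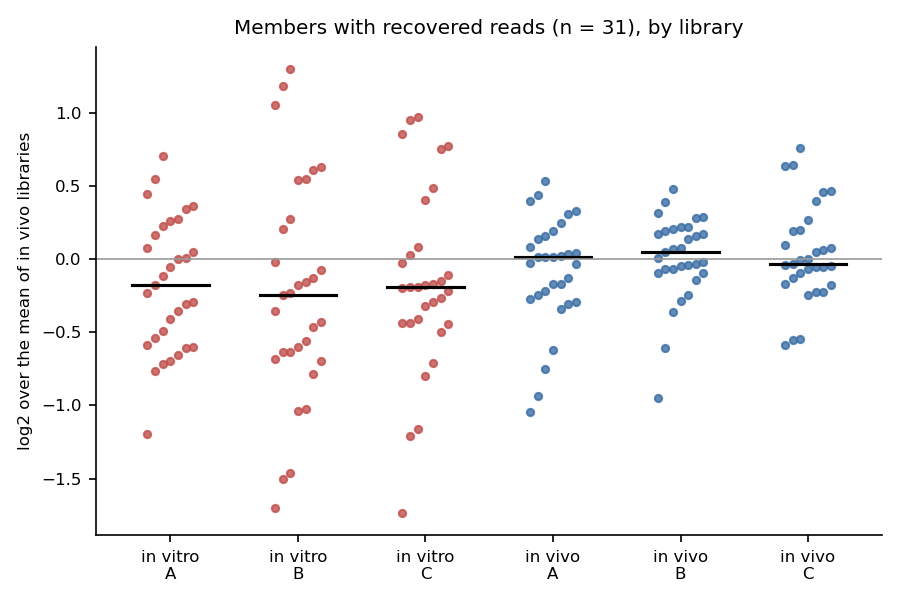
Log2 of normalised reads over the mean of the in vivo libraries for the 31 solved members, by library, with a line at the median of the members. Each in vivo library is set against the mean of the other in vivo libraries. The medians of the 3 in vitro libraries lie between -0.25 and -0.18, and those of the in vivo libraries between -0.04 and 0.05.

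Members were also longer than most genes, with a median gene length of 4282 bases against 2847 for the table, and 23 of 45 fell in the longest of 4 equal length bins of all genes. The median log2 ratio of all genes was 0.20 in the shortest bin and -0.03, -0.09 and -0.04 in the next 3. The members' medians were 0.43, -0.07, -0.51 and -0.29 in these bins, for 3, 9, 10 and 23 members. The part of gene length in the members' lean was not tested further.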

How the data were processed

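RNA of 6 samples of mouse oocytes was sequenced after cDNA synthesis with a SMARTer low input kit, per the labels' protocols. The submitters' processing notes name BWA and the build mm9, with no version or role. Counting, strand use and the tool behind the comparison are not given in the sources used here. The table the authors deposited holds, for every gene, a signal in each group, which is a mean of normalised reads not scaled by length. Beside it the authors gave a log2 ratio, a PPEE between 0 and 1, and other values such as gene length.

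Folds were computed from both means. Reads per library were recovered with numpy 2.4.6 and numba 0.67.0 from means up to 1000, to 10 significant digits, and tested on simulated data. A single solution was found for 94.3% of these means in vitro and 94.1% in vivo. Values shifted so that none should exist gave a single solution in 0% of cases up to a mean of 100. Between 200 and 500 they did so in 12.9% of cases in vitro and 19.8% in vivo. Between 500 and 1000 it was 41.6% in vitro and 58.8% in vivo. Among called members, Kpnb1, Ipo9 and Nup37 had means in that last range in both groups, and Nup50 had one in vitro. Recovered reads of abundant genes are thus less certain. These reads carry no molecular identifiers. The steps correspond to size factors of 1.09, 0.965 and 0.806 for libraries A, B and C grown in vitro and of 1.24, 1.13 and 0.885 for those grown in vivo. Differences were tested with limma 3.58.1 (voom, R 4.3.3, library sizes taken proportional to these factors, 2-sided, Benjamini-Hochberg adjusted over all 8881 genes solved in both groups).

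Members and gene lists were chosen with earlier results of these data known, so their counts are descriptions. Genes named with values were members past either threshold, the most abundant member and the one with the largest ratio in each role, and further pathway genes called by PPEE. Other named genes, the UTR search, and the alternatives with means up to 200 and without genes at a PPEE of exactly 1 were chosen after values were seen. All 45 gene identifiers were found in RefSeq, and UTRs, overlaps and pseudogenes came from GENCODE M21 on GRCm38, which differs from mm9. Same-strand exons of other genes overlap those of Rcc1, Nup62, Ranbp1, Tnpo2, Nup188, Nup214, Xpo4, Xpo7, Nup35 and Ipo4. How reads shared in this way were counted is not given in the sources used here.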

Additional observations from a re-analysis of the deposited data

How the results depend on the processing

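Of the 8 members called by PPEE in the authors' deposited table, 7 remained at a PPEE below 0.01 (without Nup37), beside 11.3% of all genes. At a PPEE below 0.05 and at least 1.5-fold, 4 remained (Nup50, Nup133, Tnpo3 and Xpo5), beside 10.1% of all genes. The count stayed at 8 with a minimum mean of 10, beside 15.4% of the genes with such a mean. It also stayed at 8 after centring on the median of all genes, beside 15.1%. The 7 members called on recovered reads by limma voom became 8 under 4 settings. These were limma's trend option (12.4% of all genes tested), median-of-ratios size factors (10.8%) and a minimum of 10 reads (10.7%). The last was without genes at a PPEE of exactly 1 (13.7%). Reads recovered for means up to 200, an alternative added after seeing the data, left 13 members to test. Of these 2 (Ipo13 and Tnpo3) were called, beside 6.37% of the genes tested. Fewer genes are tested there. Leaving out 1 library gave 0 to 13 called members, and 0 to 2378 called genes in all: 2378 without in vitro A, 187 without B and 35 without C, then 0, 35 and 563 without in vivo A, B and C. The lone pair left in a group is assumed to vary like the other group. No called member changed sign. The small log2 changes of 5 uncalled members did under some alternatives: Kpna6 went from 0.07 to -0.14 without in vitro A, Ran from 0.04 to -0.04 and Rcc1 from -0.08 to 0.00229 without in vitro B. Nup98 reached 0.08 without in vitro C, and Xpot lay between -0.36 without in vivo A and 0.03 with all libraries in limma voom, while its fold from recovered reads changed direction without in vivo C. Over single members the recovered-read tests gave 280 values on the same side of the threshold, which include members uncalled both times. A further 11 were newly past the threshold and 29 no longer past it, and all 29 came from the 7 called members. Of the folds 275 stayed within the spread and 1 (Ipo13) moved. Of 5 further pathway genes called, 4 had a mean of at least 10. No paired analysis was possible because the values carry no replicate numbers of the labels. Group means give no depth for the 14 members without recovered reads, and counting error limits those with few reads, such as Xpot and Tnpo3.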

Other observations

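A PPEE of exactly 1 was listed for 1627 genes of the authors' deposited table, among them the members Nup188, Xpo7 and Xpot. Reads per library were recovered for 1509 of these genes. Their variance between libraries of a group had a median of 0.953 times that of counting alone, and 54.0% of them lay below 1. For the 7372 recovered genes with a lower PPEE the median was 4.80, and 0.298% lay below 1. Of the genes at a PPEE of exactly 1, limma voom with Benjamini-Hochberg adjustment called 46, and the libraries of the groups did not overlap for 654. Among the members, the groups did not overlap for Nup188 and Xpo7. The variance ratio was 1.02 for Nup188, 0.768 for Xpo7, 1.11 for Xpot and 1.16 for Ipo5, whose PPEE in the authors' deposited table rounded to 1.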
